A study of Homo sapiens with 12 samples.

Results

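The genes described are the solute carriers that MDA-MB-231 tumours expressed above a low level. A gene was a member when its symbol began with SLC and a digit and its mean over 12 libraries was at least 5 CPM (a gene's reads scaled to the total counted in its library). Of 390 such symbols in the table, 173 reached that mean, and 170 remained after SLC2A1, SLC2A3 and SLC7A11, which were set aside by name. All 170 passed the low-count filter and were among the 12514 genes tested, and 25369 symbols were listed in all. Members were thus chosen by their mean level over all libraries. No difference between groups was part of the rule, but a gene could reach the mean through a group where it was high. Of the 170 members, 20 had a mean under 5 CPM in at least 1 group.

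MDA-MB-231 is an established human line of triple-negative breast cancer. For each tumour 2000000 cells in 50 µl of Matrigel were placed in the mammary fat pad of a mouse, with 10 mice in each group, and treatment started when tumours measured 100 mm3. Each group was injected into the peritoneum on 5 days a week. Control mice received the vehicle of 4% DMSO, 30% PEG 300 and 5% Tween 80. In the p38i group the agent was SB202190, which inhibits the kinases p38, given at 1 mg/kg/day. In the EZH2i group it was an inhibitor of EZH2, the enzyme that methylates histone H3 to silence genes, given at 10 mg/kg/day. The labels write the code of the latter as EPZ-6428 and as EPZ-6438. The combination group received both inhibitors, and no separate dose is given for it. RNA of 3 tumours per group was counted, and every tumour derived from the same cell line. No label says whether the tumours of a group came from different mice, so the p-values measure only the spread between these libraries.

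Solute carriers are membrane proteins that move nutrients, ions, metabolites and drugs across the plasma membrane and the membranes of organelles, by facilitated diffusion, exchange or cotransport with an ion. The family number follows sequence relatedness, and members of a family often share a kind of substrate. In cancer cells the best known carriers are those that bring in glucose and amino acids and export lactate.

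By substrate, the 170 members fell into 13 classes. The classes of more than 10 members were 32 mitochondrial carriers, 24 carriers of inorganic ions and protons, 23 of metals and heme, 21 of amino acids, 16 of other or unknown substrate and 13 of nucleotide sugars. Smaller classes held 9 carriers of sugars and polyols, 9 of organic anions, cations and drugs, 8 of lipids, choline and acyl groups, 4 of vitamins, 3 of carboxylates and 3 of nucleosides and nucleobases. The last class held 5 genes that are named after a carrier without being one. They are SLC2A4RG (a transcription factor), SLC4A1AP (an adaptor protein), SLC9A3R1 and SLC9A3R2 (scaffold proteins) and SLC7A5P2 (a pseudogene).

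The shallowest library, EZH2i 6-1, held 2208771 counts and the deepest, combination 9-1, held 4467942. Members together held between 0.963% of counts (control 1-1) and 1.2% (EZH2i 5-4). Vimentin and CD44, markers of this mesenchymal-like line, were present in every library. The hormone receptor genes ESR1 and PGR stood at 4.55 and 3.83 CPM in controls. Together with ERBB2, the other gene of that list, they held 0.00294% to 0.00374% of control counts, most of it from ERBB2. Tumour labels of 2 p38i libraries could not be assigned, and these are called library 5 and library 6 after their column names. Library 6 differed from all others in skeletal muscle genes. The 12 genes of the muscle list made up 0.16% of its counts, against 0.00473% to 0.015% in the other 11 libraries. Fibroblast genes held 0.0284% to 0.115% of counts, endothelial genes at most 0.00326%, erythroid genes at most 0.00228% (2 of 6 at 0 in every library) and adipocyte genes at most 8.18e-04%. With p38i, TIE1 of the 8 endothelial genes rose from 0.437 ± 0.383 to 5.32 ± 2.06 CPM (edgeR adjusted p = 0.0298), and PDGFRB of the 8 fibroblast genes fell from 39.2 ± 26.4 to 9.44 ± 2.91 CPM (edgeR adjusted p = 0.0433). No other gene of these cell type lists passed in a comparison with control. Of the 4 endothelial genes tested, 1 was above 0 with p38i and 3 were below (median log2 fold change -0.32). Of the 7 fibroblast genes tested, 2 were above 0 with p38i and 5 were below (median -0.18). Host cells of these tumours are mouse cells, while reads were aligned to the human build hg19. Whether mouse reads were removed is not given. Transcripts of the human cells and mouse reads aligned to human genes cannot be told apart for these lists. Neither can fewer cells of a type and less RNA per cell.

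SLC37A2 and SLC5A3 were the only members past the threshold in any of 6 comparisons (edgeR quasi-likelihood test, Benjamini-Hochberg adjusted p under 0.05 over all genes tested), and both belong to the sugar and polyol class. SLC37A2 fell with p38i and with EZH2i, by 2.82-fold and 2.8-fold. SLC5A3 rose with EZH2i by 2.17-fold. With p38i, 1 of 170 members passed (1 lower), beside 1.77% of all genes tested (0.655% higher, 1.11% lower). With EZH2i, 2 of 170 passed (1 higher, 1 lower), beside 0.216% of all genes (0.0879% higher, 0.128% lower). With the combination, 0 of 170 passed, beside 0.00799% of all genes (1 gene).

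SLC37A2 encodes an exchanger of glucose 6-phosphate and phosphate in the membrane of the endoplasmic reticulum. Its level was 97.8, 109.9 and 113 CPM in the control libraries, from 80 to 478 counts per library over the whole set. It was 44.0, 35.6 and 34.5 CPM with p38i. With EZH2i it was 57.7, 23.4 and 34.9 CPM. With the combination it was 41.0, 32.6 and 32.3 CPM. Every treated library lay below every control, and the treated groups overlapped each other.

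The mean of SLC37A2 was 107 ± 8.13 CPM (SD, n = 3) in controls and 38.02 ± 5.18 with p38i, a log2 fold change of -1.50 (SE 0.25, edgeR adjusted p = 0.0164). With EZH2i the mean was 38.7 ± 17.5 CPM and the log2 fold change -1.49 (SE 0.253, edgeR adjusted p = 0.0398). With the combination the mean was 35.3 ± 4.95 CPM and the log2 fold change -1.60 (SE 0.251), 3.03-fold lower, and edgeR's adjusted p was 0.0765. This comparison missed the threshold although its fold change was as large as those of the single agents. The combination differed from p38i by -0.10 and from EZH2i by -0.12 on the log2 scale (edgeR adjusted p 0.944 and 0.991). The interaction, which asks whether the combination departs from the sum of both log2 changes, was 1.38 (SE 0.357, edgeR adjusted p = 0.125).

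The call with p38i was lost when control 1-3 (edgeR adjusted p = 0.0833), p38i 3-3 (0.0617), library 5 (0.0591) or library 6 (0.0844) was left out, and held without each of the other 8 libraries. The call with EZH2i held without 4 of the 12 libraries and was lost without control 1-1, control 1-3, p38i 3-3, library 5, EZH2i 5-4, EZH2i 6-1, combination 9-1 or combination 9-2, with edgeR adjusted p values up to 0.214. Over these omissions the log2 fold change ran from -1.61 to -1.42 with p38i and from -1.88 to -1.21 with EZH2i. In a fit of only the control and EZH2i groups edgeR's adjusted p was 0.18.

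SLC37A2 is also known from macrophages. The 8 genes of the macrophage list together held 0.00145% to 0.00271% of counts in controls, 0.00149% to 0.00312% with p38i, 0.0021%, 0.00192% and 0.00254% with EZH2i, and 0.00175% to 0.00212% with the combination. CD163 had 2 counts in control 2-1 and 0 in the other 11 libraries. The summed levels of this list overlapped between the groups, and its part in the SLC37A2 result was not tested. Host macrophages would be mouse cells, and reads were aligned to the human build, so the list may not measure them.

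SLC5A3 encodes a sodium-coupled carrier of myo-inositol, an organic osmolyte and a precursor of phosphoinositides. Its level was 241, 185 and 228 CPM in controls and 423, 407 and 271 CPM with p38i. It was 416, 570.0 and 433 CPM with EZH2i and 263, 396 and 377 CPM with the combination. Controls were the lowest group, with no overlap with any treated group. The p38i libraries overlapped those of both other treated groups, while every EZH2i library lay above every combination library.

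The mean of SLC5A3 was 218 ± 29.6 CPM (SD, n = 3) in controls and 473 ± 84.7 with EZH2i, a log2 fold change of 1.12 (SE 0.209, edgeR adjusted p = 0.0412). With p38i the mean was 367 ± 83.2 CPM, 1.68-fold higher (log2 0.75, SE 0.207), and edgeR's adjusted p was 0.0784. With the combination it was 345 ± 72.2 CPM, 1.59-fold higher (log2 0.66, SE 0.207, edgeR adjusted p = 0.199). The interaction was -1.21 (SE 0.292, edgeR adjusted p = 0.107). The EZH2i call held without 4 of the 12 libraries. It was lost without control 1-1, control 1-3, p38i 3-3, library 5, EZH2i 5-4, EZH2i 6-1, combination 9-1 or combination 9-2, where edgeR's adjusted p reached 0.252 and the log2 fold change stayed between 0.96 and 1.22. It was also lost in a fit of only these 2 groups (edgeR adjusted p = 0.121) and with limma-voom (adjusted p = 0.0523).

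**Figure D1:**
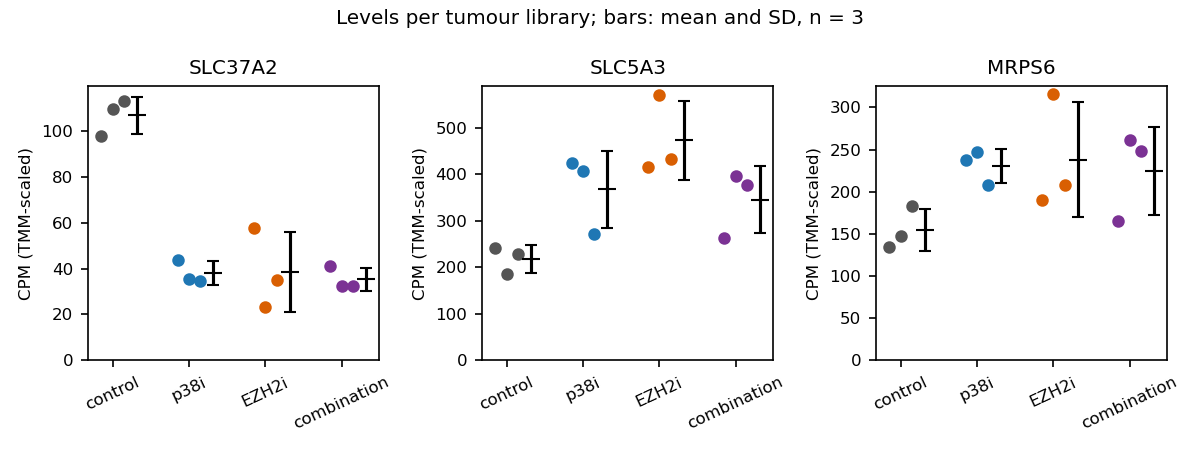
Levels of SLC37A2, SLC5A3 and MRPS6 in CPM (linear axes from 0) in each of 12 tumour libraries, by group, with the mean and SD of 3 libraries beside the points. All treated libraries lie below the controls for SLC37A2 (23.4 to 57.7 against 97.8 to 113 CPM) and above them for SLC5A3 (263 to 570 against 185 to 241 CPM), and 1 combination library overlaps the controls for MRPS6.

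In GENCODE release 29, SLC5A3 shares exon bases on the same strand with MRPS6, which encodes a protein of the small mitochondrial ribosomal subunit, and both have the same RefSeq promoter window. Reads of the shared bases cannot be given to one of these genes, so the values of both are uncertain. MRPS6 stood at 134, 147 and 183 CPM in controls. It stood at 237, 247 and 207 CPM with p38i, at 190.3, 316 and 207 with EZH2i, and at 165, 262 and 248 with the combination. All p38i and EZH2i libraries of MRPS6 lay above the controls, while combination 8-1 lay among them. Its log2 fold changes were 0.57 with p38i, 0.62 with EZH2i and 0.54 with the combination (edgeR adjusted p 0.169, 0.206 and 0.253).

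The upstream sequence of SLC5A3 is shown with those of 2 other members whose 9 treated libraries all lay on one side of the controls, SLC35A1 (above) and SLC11A2 (below). Other members of that kind were left out because they had no promoter entry or their window held annotated exon bases. Each is the stretch from 250 to 61 bases before the gene start in RefSeq's GRCh38.p14 table, 190 bases long, read 5′ to 3′ on the strand of the gene and matched by symbol. Coordinates are chr21:34073328-34073517 (plus strand) for SLC5A3, chr6:87472724-87472913 (plus strand) for SLC35A1 and chr12:51026445-51026634 (minus strand) for SLC11A2. Capitals mark the GC box letters GGGCGG on either strand, and neighbouring matches may run together.
SLC5A3: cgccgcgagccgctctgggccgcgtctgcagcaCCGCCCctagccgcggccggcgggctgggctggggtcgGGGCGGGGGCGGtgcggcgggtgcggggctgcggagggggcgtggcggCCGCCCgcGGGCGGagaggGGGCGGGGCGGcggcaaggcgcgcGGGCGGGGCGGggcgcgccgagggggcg
SLC35A1: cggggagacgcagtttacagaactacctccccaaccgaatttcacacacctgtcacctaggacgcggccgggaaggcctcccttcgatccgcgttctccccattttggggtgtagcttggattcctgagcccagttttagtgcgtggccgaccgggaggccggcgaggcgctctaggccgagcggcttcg
SLC11A2: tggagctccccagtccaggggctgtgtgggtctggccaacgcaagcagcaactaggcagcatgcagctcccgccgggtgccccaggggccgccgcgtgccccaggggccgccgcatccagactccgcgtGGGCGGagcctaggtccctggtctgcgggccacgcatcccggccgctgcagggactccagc
The window of SLC5A3 held 9 GC box matches and 36 CpG dinucleotides and was 88.4% G or C, beside a median of 56.8% over 35116 RefSeq promoter entries cut to the same length. The median of the 135 members with an entry was 64.2%. That of SLC11A2 held 1 match and 15 CpG at 73.7%, and that of SLC35A1 0 matches and 18 CpG at 62.6%. The GC box was found in 33% of the 35116 windows and in 53.3% of the 135 member windows. The 35116 windows were not limited to genes expressed in these tumours, and the difference was not tested. The CCAAT box (CCAAT), the E-box (CACGTG), the TATA letters TATAAA and the tonicity-responsive element were searched on both strands. They were found in 25.8%, 4.13%, 7.4% and 3.25% of all windows. In the member windows the shares were 28.1%, 5.93%, 2.96% and 1.48%. None of the 3 windows shown held them. Bases more than 250 or fewer than 61 before the gene start were not searched, so a promoter may hold these letters outside its window.

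Genes of the osmotic response, in which SLC5A3 is a known target, were examined as a list of 10, of which 9 were tested and SLC5A3 and SLC38A2 are members. With EZH2i 2 of the 9 passed as higher, SLC5A3 and SGK1, a kinase that acts on many carriers and channels. As lower, 0 passed, beside 0.216% of all genes called in either direction (0.0879% higher). The list was built around SLC5A3 with its call known, so that its count is no independent evidence about the osmotic response. SGK1 stood at 36.2, 34.2 and 35.3 CPM in controls and at 60.6, 62.6 and 65.5 CPM with EZH2i (log2 0.84, edgeR adjusted p = 0.0398). It stood at 48.7, 49.4 and 44.3 CPM with p38i and at 56.3, 61.6 and 65.0 CPM with the combination (log2 0.43 and 0.79, edgeR adjusted p 0.134 and 0.0824). Every treated library of SGK1 lay above the controls. NFAT5, the transcription factor of this response, differed by -0.25, -0.30 and -0.19 on the log2 scale (p38i, EZH2i, combination), and AKR1B1, which makes the osmolyte sorbitol, by -0.43, -0.19 and -0.01. The heat shock gene HSPA1B averaged 49.9 ± 33.4 CPM in controls and 118 ± 53.7, 169.9 ± 14.2 and 120.0 ± 29.1 CPM in the treated groups in the same order, with edgeR adjusted p of 0.139, 0.119 and 0.223. No gene of this list passed with p38i or with the combination. Of the 9 genes, 5 were above 0 and 4 below with p38i, and the same numbers with EZH2i (median log2 0.02 and 0.07). Values ran from -1.367 to 1.215 with p38i and from -1.414 to 1.744 with EZH2i. With the combination 6 were above 0 and 3 below (median 0.17).

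Over all members the changes were small and centred near 0. The median log2 fold change was -0.05 with p38i, -0.01 with EZH2i and -0.04 with the combination, beside 0.00, 0.01 and 0.01 over all genes tested. Values above 0 were found for 73, 84 and 78 of 170 members. The comparisons share the control libraries, so these figures are not independent of each other. At an unadjusted p under 0.05, 33 members differed with p38i (13 higher, 20 lower), a share of 19.4% beside 18.4% of all genes (9.08% higher, 9.3% lower). The count was 26 with EZH2i (10 higher, 16 lower), 15.3% beside 14.7% of all genes (7.43% higher, 7.29% lower). It was 24 with the combination (13 higher, 11 lower), 14.1% beside 16.3% of all genes (7.66% higher, 8.67% lower).

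By class the medians stayed within 0.32 of 0 in every comparison with control. The lowest was -0.32, of the 9 sugar and polyol carriers with p38i, where 3 of 9 values were above 0. Nucleotide sugar carriers had medians of -0.05 with p38i, 0.07 with EZH2i and 0.21 with the combination, and mitochondrial carriers 0.04, 0.09 and 0.05. Carriers of inorganic ions had -0.14, -0.17 and -0.20 and metal carriers -0.15, 0.00 and -0.09. Outside the sugar and polyol class, 0 members passed in any comparison with control.

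**Figure D2:**
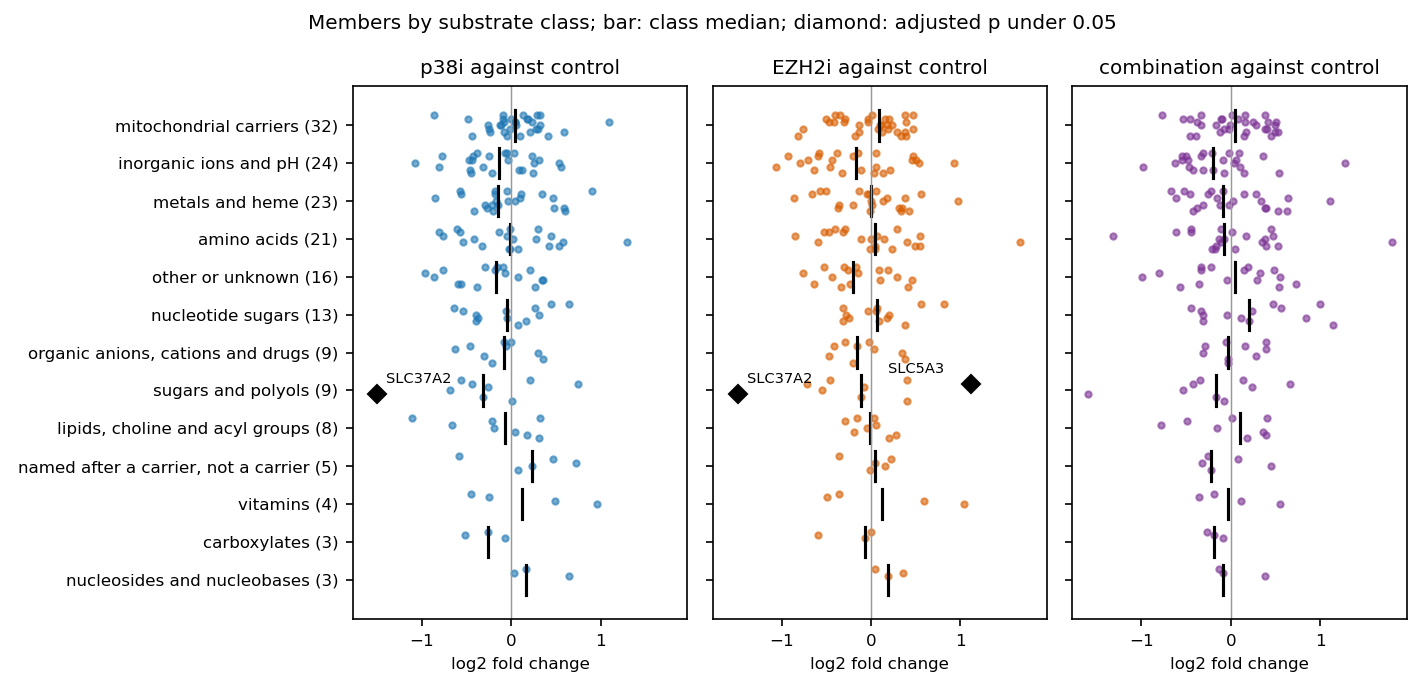
Log2 fold changes of the 170 members in the 3 comparisons with control, 1 point per gene, in rows by substrate class with the number of members in brackets; black bars are class medians and diamonds mark edgeR adjusted p under 0.05. The class medians lie between -0.32 and 0.23, and the diamonds are SLC37A2 with p38i and EZH2i and SLC5A3 with EZH2i.

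Among the other sugar carriers, SLC2A8, an intracellular glucose transporter, averaged 11.1 ± 2.05 CPM in controls and 6.94 ± 1.4, 7.67 ± 0.936 and 7.76 ± 3.47 CPM with p38i, EZH2i and the combination (log2 -0.68, -0.55 and -0.53; edgeR adjusted p 0.283, 0.462 and 0.417). Its p38i and EZH2i libraries lay below the controls and its combination libraries overlapped them. The glucose transporters SLC2A1 and SLC2A3 and the cystine exchanger SLC7A11 were not members. SLC2A1 averaged 336 ± 26.9 CPM in controls and 466 ± 147, 538 ± 29.6 and 538 ± 20.6 in the treated groups, and none of the 3 genes passed in a comparison with control.

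Of the 3 carboxylate carriers, SLC16A3, which exports lactate, averaged 138 ± 26.3 CPM in controls, 116 ± 3.8 with p38i, 138 ± 26.9 with EZH2i and 115 ± 4.72 with the combination. Its log2 fold changes were -0.26, 0.00 and -0.27 (edgeR adjusted p 0.457, 1 and 0.433), and every treated group overlapped the controls. SLC16A5 differed by -0.51, -0.60 and -0.19, from 6.49 ± 3.01 CPM in controls, with edgeR adjusted p of 0.644, 0.639 and 0.876.

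BSG encodes basigin, the partner protein that SLC16A3 needs to reach the cell surface. It fell with p38i, from 55.8, 55.2 and 49.1 CPM in controls to 31.4, 29.0 and 32.5 CPM (log2 -0.78, edgeR adjusted p = 0.0339). It stood at 45.5, 38.03 and 34.1 CPM with EZH2i and 44.0, 42.5 and 38.9 CPM with the combination (edgeR adjusted p 0.238 and 0.299). All 9 treated libraries lay below the controls. BSG was 1 of 11 tested genes on a list of 15 ion pumps and carrier partners, of which 0 rose and 1 fell with p38i, beside 1.77% of all genes called (1.11% lower), and 0 passed in the other comparisons with control. On a list of 15 regulators of carrier genes, 14 were tested and SGK1 alone passed, as higher with EZH2i. This is the same call as on the osmotic response list. It stands beside 0.216% of all genes called with EZH2i (0.0879% higher). Of the 14 genes, 7 were above 0 with EZH2i and 7 below (median log2 fold change 0.02).

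Among the 21 amino acid carriers, SLC38A2, which takes up small neutral amino acids with sodium and responds to amino acid shortage, averaged 1070.3 ± 55.4 CPM in controls and 1039 ± 93.9, 1124 ± 57.5 and 1201 ± 196 CPM in the treated groups. Its log2 fold changes were -0.04, 0.07 and 0.17, and it was one of the members that varied least between libraries. SLC1A4, a neutral amino acid exchanger, was 11.6, 12.9 and 7.58 CPM in controls and 5.57, 3.52 and 3.77 CPM with the combination, which did not overlap (log2 -1.31, edgeR adjusted p = 0.192). SLC1A6, a glutamate carrier, was 2.91, 2.40 and 1.18 CPM in controls and 4.10, 7.27 and 10.7 CPM with the combination (log2 1.80, edgeR adjusted p = 0.252). It rested on 3 to 34 counts per library. All its controls were under 5 CPM, so SLC1A6 was a member only through treated libraries. SLC15A4, which carries peptides and histidine out of lysosomes, averaged 70.6 ± 14 CPM in controls and 46.4 ± 5.24 with p38i (log2 -0.61, edgeR adjusted p = 0.108). SLC38A6 averaged 28.4 ± 8.27 CPM in controls and 19.2 ± 5.57 with EZH2i (log2 -0.60, edgeR adjusted p = 0.308).

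Of the carriers of inorganic ions, the phosphate importer SLC20A1 averaged 822 ± 212 CPM in controls and 597 ± 156, 527 ± 59.8 and 614 ± 99.4 CPM with p38i, EZH2i and the combination, with edgeR adjusted p of 0.279, 0.206 and 0.351. SLC26A2, a sulfate carrier, was 242, 209 and 188 CPM in controls and 102, 153 and 134 CPM with EZH2i, below all controls (log2 -0.71, edgeR adjusted p = 0.13). With DESeq2 its adjusted p was 0.0397. The related anion exchangers SLC26A11 and SLC26A7 differed by -0.93 and -1.06 with EZH2i (edgeR adjusted p 0.244 and 0.273), and their EZH2i libraries also lay below the controls. SLC26A6, the other member of this family, lay above the controls with EZH2i, at 19.5, 22.4 and 17.0 against 14.2, 13.2 and 13.5 CPM (log2 0.54, edgeR adjusted p = 0.267). SLC8B1, the sodium and calcium exchanger of mitochondria, was 20.0, 22.2 and 18.7 CPM in controls and 31.7, 30.6 and 27.2 CPM with p38i (log2 0.55, edgeR adjusted p = 0.139).

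Among the carriers of metals and heme, SLC11A2, which imports ferrous iron, was 84.5, 78.4 and 95.5 CPM in controls. It was 76.4, 49.1 and 48.4 CPM with p38i, 72.0, 45.2 and 58.1 CPM with EZH2i and 65.3, 60.8 and 54.0 CPM with the combination. All 9 treated libraries lay below the controls, with log2 fold changes of -0.58, -0.57 and -0.52 (edgeR adjusted p 0.154, 0.238 and 0.253). SLC39A6, a zinc importer, was 166, 171 and 167 CPM in controls and 177 to 339 CPM in treated libraries (log2 0.34, 0.56 and 0.28; edgeR adjusted p 0.384, 0.215 and 0.481). SLC39A13, a zinc carrier of the secretory pathway, averaged 241 ± 17.9 CPM in controls and between 209 ± 39.3 (EZH2i) and 222 ± 20.1 (combination) in the treated groups. SLC39A11 averaged 30.6 ± 14.4 CPM in controls and 16.8 ± 4.26, 16.6 ± 2.94 and 19.7 ± 2.39 CPM in the treated groups (edgeR adjusted p 0.151, 0.219 and 0.322). Without control 2-1 it passed with p38i at an edgeR adjusted p of 0.043.

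SLC39A4, a zinc importer, was 21.5 and 15.7 CPM in p38i 3-3 and library 5 and 48.7 CPM in library 6. Controls were 15.8, 14.4 and 15.9 CPM, and the p38i group differed by 0.91 on the log2 scale (edgeR adjusted p = 0.174). SLC25A4, the isoform of the mitochondrial exchanger of ADP and ATP found in heart and skeletal muscle, was 52.5 and 72.3 CPM in p38i 3-3 and library 5 and 193 CPM in library 6. It was 40.0, 46.8 and 61.6 CPM in controls, and its log2 fold change of 1.10 with p38i (edgeR adjusted p = 0.151) rested on the library with the muscle transcripts. The part of the muscle transcripts in the values of both genes was not tested.

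Of the other mitochondrial carriers, the phosphate carrier SLC25A3 averaged 699.9 ± 115 CPM in controls and 821 ± 96.4, 914 ± 381 and 931 ± 72.9 CPM in the treated groups (edgeR adjusted p 0.641, 0.453 and 0.379). SLC25A42, which brings coenzyme A into mitochondria, was 25.4, 26.7 and 34.1 CPM in controls and 14.2, 16.6 and 20.5 CPM with EZH2i (log2 -0.76, edgeR adjusted p = 0.167). The combination stood at 29.9, 30.4 and 25.1 CPM for this gene and overlapped the controls. SLC25A44, a carrier of branched-chain amino acids, averaged 21.1 ± 3.52 CPM in controls and 11.9 ± 3.66 with EZH2i (log2 -0.82, edgeR adjusted p = 0.276). SLC25A45 averaged 8.54 ± 1.26 CPM in controls and 4.64 ± 0.674, 6.34 ± 1.46 and 5.00 ± 1.92 CPM in the treated groups, every library below the controls (edgeR adjusted p 0.19, 0.609 and 0.282).

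Nucleotide sugar carriers supply the Golgi apparatus and endoplasmic reticulum with the donors of glycosylation and sulfation. SLC35B3, a Golgi carrier of the sulfate donor PAPS, was 29.97, 36.9 and 36.0 CPM in controls. It was 52.5, 53.0 and 55.8 CPM with p38i, 45.1, 79.0 and 57.2 CPM with EZH2i, and 55.7, 86.7 and 63.1 CPM with the combination. All 9 treated libraries lay above the controls, with log2 fold changes of 0.64, 0.82 and 1.00 (SE 0.218, 0.218 and 0.217) and edgeR adjusted p of 0.132, 0.125 and 0.133. DESeq2 gave adjusted p of 0.0411 with EZH2i and 0.00883 with the combination. SLC35A1, the carrier of CMP-sialic acid, was 25.8, 29.1 and 20.9 CPM in controls and 31.0 to 43.0 CPM in treated libraries (log2 0.44, 0.56 and 0.47; edgeR adjusted p 0.244, 0.214 and 0.268). SLC35B4, a carrier of UDP-xylose, was 41.6, 42.0 and 35.8 CPM in controls and 18.7 to 33.7 CPM in treated libraries (log2 -0.64, -0.32 and -0.45; edgeR adjusted p 0.113, 0.489 and 0.297). Thus 3 of the 13 members of this class had all treated libraries on one side, 2 above and 1 below, beside 6.12% of all genes tested (2.79% above, 3.33% below). This class was singled out after its values were seen. SLC35B1, a nucleotide carrier of the endoplasmic reticulum, averaged 64.7 ± 9.65 CPM in controls and 73.0 ± 3.99, 68.8 ± 6.55 and 74.9 ± 7.9 CPM in the treated groups, and had the lowest ratio of highest to lowest library of all members.

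Of the 4 vitamin carriers, SLC5A6, which takes up biotin and pantothenate with sodium, was 13.7, 14.1 and 11.1 CPM in controls. It was 21.5, 28.2 and 25.7 CPM with p38i, 17.5, 45.0 and 15.3 CPM with EZH2i, and 17.6, 15.9 and 23.8 CPM with the combination, above all controls (log2 0.96, 1.04 and 0.55; edgeR adjusted p 0.158, 0.199 and 0.432). SLC52A2, a riboflavin carrier, averaged 42.6 ± 4.74 CPM in controls, 59.8 ± 10.8 with p38i, 64.2 ± 14.8 with EZH2i and 46.2 ± 7.15 with the combination (edgeR adjusted p 0.212, 0.204 and 0.8). The EZH2i mean of SLC5A6 was raised by EZH2i 5-4, the highest of all 12 libraries for this gene. The combination differed from p38i by -0.40 for SLC5A6 and -0.38 for SLC52A2 on the log2 scale (edgeR adjusted p 0.801 and 0.679), and from EZH2i by -0.48 for both (edgeR adjusted p 0.991). Their interactions were -1.44 and -0.97 (edgeR adjusted p 0.214 and 0.163).

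SLC43A3, a carrier of purine nucleobases, was 104, 125 and 182 CPM in controls and 211, 219.7 and 214 CPM with p38i. These did not overlap (log2 0.65, SE 0.191, edgeR adjusted p = 0.0956), and DESeq2's adjusted p was 0.0367. Without control 2-1, the highest control, edgeR's adjusted p was 0.0198. SLC29A1, which carries nucleosides in both directions, averaged 224 ± 55 CPM in controls and 252 ± 31.9, 231 ± 73.4 and 205 ± 7.46 CPM in the treated groups (log2 0.17, 0.05 and -0.13).

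Among carriers of lipids and choline, SLC27A3, of the fatty acid transport protein family, averaged 10.2 ± 1.71 CPM in controls, 6.39 ± 1.96 with p38i, 10.5 ± 0.714 with EZH2i and 5.80 ± 0.925 with the combination (edgeR adjusted p 0.251, 0.949 and 0.246). Its p38i and combination libraries lay below the controls. SLC44A5 was 6.24, 5.70 and 8.77 CPM in controls and 3.41, 3.31 and 2.94 CPM with p38i (log2 -1.11, edgeR adjusted p = 0.209), and its combination libraries overlapped the controls. SLC44A1, the choline carrier of this family, averaged 91.0 ± 18.6 CPM in controls and 120 ± 10.4 with the combination (log2 0.39, edgeR adjusted p = 0.286).

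Of the organic anion carriers, SLC17A5, which releases sialic acid from lysosomes, averaged 88.6 ± 17.8 CPM in controls and 83.8 ± 28.4, 72.9 ± 18.4 and 85.6 ± 16.2 CPM in the treated groups. SLC17A9, which loads ATP into vesicles, averaged 77.2 ± 14.5 CPM in controls and 56.3 ± 13.1, 58.4 ± 5.76 and 63.4 ± 7.68 CPM (edgeR adjusted p 0.234, 0.355 and 0.473). All treated groups of both genes overlapped the controls.

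In the class of other or unknown substrates, SLC35E1 was above the controls in all treated libraries, at 122 to 130 against 140 to 200 CPM (log2 0.35, 0.45 and 0.30; edgeR adjusted p 0.228, 0.193 and 0.337). SLC22A18 averaged 12.5 ± 5.17 CPM in controls and 6.12 ± 0.956 with the combination (log2 -0.99, edgeR adjusted p = 0.239). SLC35E2 averaged 193 ± 67.6 CPM in controls and 127 ± 33.2 with p38i (log2 -0.60, edgeR adjusted p = 0.253), passed at 0.0463 without control 2-1, and has a near-identical copy, SLC35E2B, so its counts are uncertain.

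Of the 5 genes that are not carriers, SLC2A4RG averaged 172 ± 27 CPM in controls and 114 ± 17.3 with p38i (log2 -0.59, edgeR adjusted p = 0.132). SLC4A1AP was 58.7, 61.2 and 50.7 CPM in controls and 75.0, 80.6 and 80.2 CPM with p38i (log2 0.47, edgeR adjusted p = 0.14). SLC9A3R1 and SLC9A3R2 differed by 0.23 and 0.07 with p38i, 0.16 and -0.01 with EZH2i, and 0.45 and -0.22 with the combination. SLC7A5P2 is a copy of SLC7A5 and averaged 5.94 ± 1.17 CPM in controls, so its reads are uncertain.

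In all, 35 members did not overlap the controls with p38i (16 above, 19 below), 20.6% beside 24.8% of all genes tested (12.3% above, 12.5% below). The count was 32 with EZH2i (12 above, 20 below), 18.8% beside 16.4% of all genes (8.32% above, 8.09% below). It was 38 with the combination (20 above, 18 below), 22.4% beside 22% of all genes (10.7% above, 11.2% below). For 10 members, 5.88% beside 6.12% of all genes (2.79% above, 3.33% below), all 9 treated libraries lay on one side. SLC39A6, SLC35E1, SLC5A6, SLC5A3, SLC35B3 and SLC35A1 were above and SLC25A45, SLC37A2, SLC11A2 and SLC35B4 below. The members' shares in both directions combined were close to those of all genes.

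**Figure D3:**
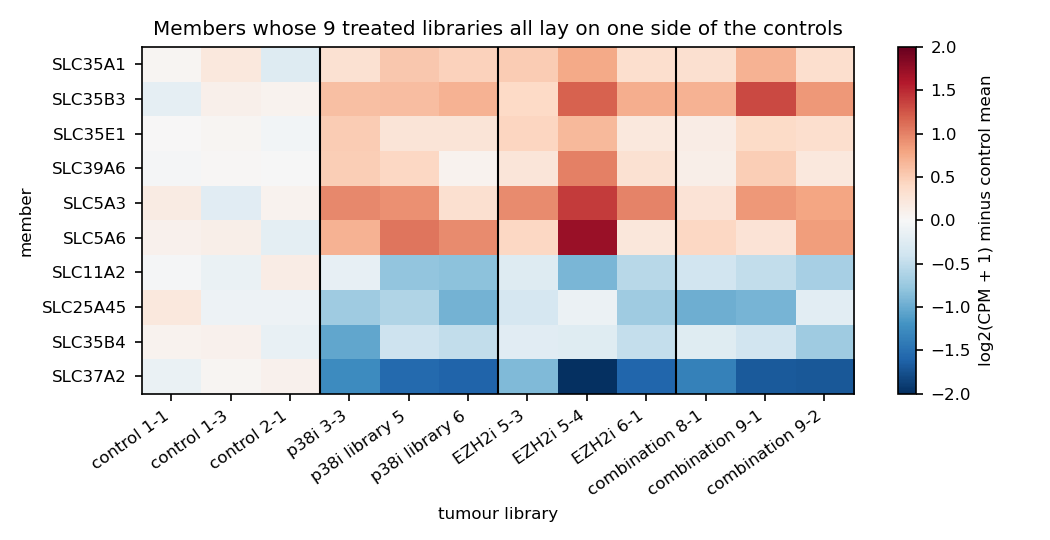
Log2(CPM + 1) minus the mean of the 3 controls, in colour, for the 10 members whose 9 treated libraries all lay above (upper 6 rows) or below (lower 4 rows) the controls; columns are the 12 libraries and lines divide the groups. EZH2i 5-4 holds the darkest cells of SLC37A2, SLC5A3 and SLC5A6.

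Against the single agents, the combination gave 0 member calls. At an unadjusted p under 0.05, 12 members differed from p38i (6 higher, 6 lower), 7.06% beside 7.81% of all genes (3.52% higher, 4.28% lower). A further comparison, with EZH2i, gave 10 members (4 higher, 6 lower), 5.88% beside 3.12% of all genes (1.45% higher, 1.67% lower). By edgeR's adjusted p, 0% of all genes tested passed in either of these comparisons. The interaction gave 0 member calls beside 0.024% of all genes (0.016% higher, 0.00799% lower). For it 24 members had an unadjusted p under 0.05 (13 higher, 11 lower), 14.1% beside 13.1% of all genes (6.19% higher, 6.94% lower). The lowest p-values that edgeR gave among members named here for the interaction were 0.000891 for SLC5A3 and 0.00151 for SLC37A2, each opposite in sign to the changes with the single agents.

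Members varied between tumours of a group as well as between groups. The highest library exceeded the lowest by a median ratio of 2.13 over members, with 60 members under 2 and 21 over 4. The median coefficient of variation was 18.9% in controls, 17.2% with p38i, 23% with EZH2i and 16.8% with the combination. EZH2i 5-4 held the highest value of 31 members and the lowest of 24, and control 1-1 the highest of 23 and the lowest of 31. Component 1 of a principal component analysis over members held 33.4% of the variance, with scores of -5.38, -3.39 and 1.86 for the controls and 4.57 for combination 9-1.

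SLC35B2, a Golgi carrier of PAPS, was 0.416, 3.00 and 11.1 CPM in controls and 4.77, 2.48 and 9.05 CPM with p38i. It was 2.85, 2.49 and 16.2 CPM with EZH2i and 3.81, 18.3 and 12.2 CPM with the combination, on 1 to 83 counts. SLC35A5 was 3.75, 5.40 and 23.9 CPM in controls and 7.62, 33.5 and 20.1 CPM with the combination. In both genes control 2-1, library 6 and EZH2i 6-1 were the highest of their groups. The same libraries were highest of these 3 groups for SLC39A14, a carrier of zinc and iron (27.3, 37.9 and 30.6 CPM), and for SLC25A5, a mitochondrial exchanger of ADP and ATP (554, 414 and 323 CPM). In the combination group, 9-1 was the highest for all 4 genes. These 4 were chosen after their values were seen, and none passed in a comparison with control. They also had the largest weights in component 1 (SLC35B2 0.367, SLC35A5 0.323, SLC39A14 0.209, SLC25A5 0.204). Their shared pattern and that component are therefore not separate observations.

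**Figure D4:**
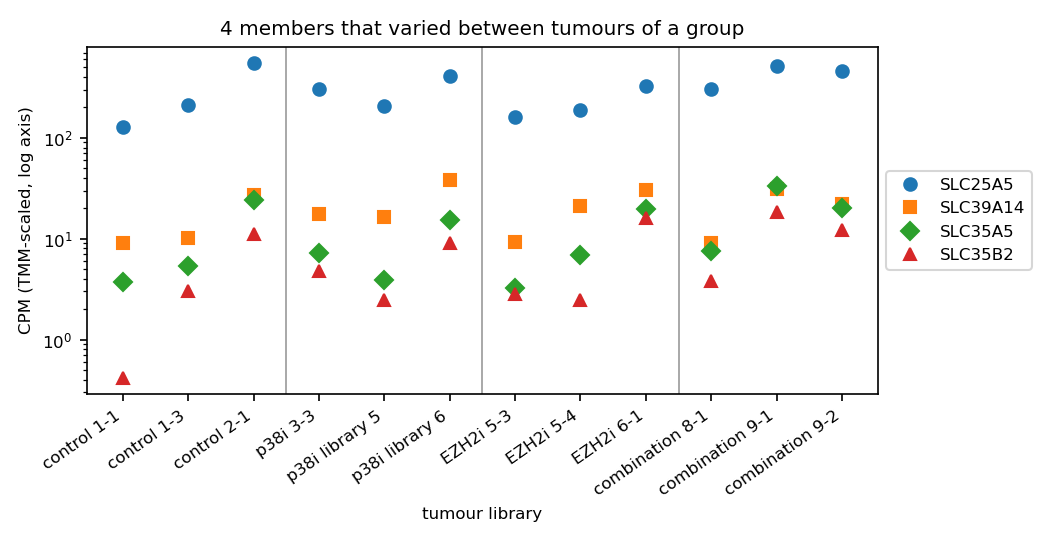
Levels in CPM (log axis) of SLC25A5, SLC39A14, SLC35A5 and SLC35B2 in the 12 libraries, 1 point per gene and library, with lines dividing the groups. Control 2-1, p38i library 6, EZH2i 6-1 and combination 9-1 are the highest of their groups for all 4 genes, and SLC35B2 runs from 0.416 to 18.3 CPM.

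At the threshold of the rule, the members with the lowest means included SLC4A5 and SLC39A12, and the carriers just below it were SLC24A2 at 4.94, SLC30A1 at 4.82 and SLC17A8 at 4.81 CPM. Of the members, 150 reached 5 CPM in every group mean and 20 were below it in at least 1 group.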

How the data were processed

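RNA-seq counts of 12 tumours, 3 per group, were analysed. The submitters' processing notes name Trim Galore 0.5.0 for trimming, STAR 2.6.0 for alignment and the genome build hg19. How reads were counted, with which annotation and strand setting, and whether mouse reads were removed is not given in the sources used here. Each library was made from 1.3 µg of RNA per the labels, where both a SMARTer mRNA kit and QuantSeq are named, so that gene lengths were not used, and levels were compared between genes only to pick the member named for its CPM in each class, with no correction for length. The authors deposited unscaled counts as whole numbers, with a column for each library. The 3 lines without a gene name, which held 0 counts, were dropped. Each sample's description gives the name of its column. Column 5 is named by 2 p38i samples and column 6 by none, so column 6 was taken as p38i by elimination and tumour numbers of both are unknown.

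Genes were filtered with filterByExpr and scaled by TMM in edgeR 4.0.16 (R 4.3.3). All 12 libraries entered a robust quasi-likelihood model with group terms, two-sided tests were run, and p-values were adjusted by Benjamini-Hochberg over 12514 genes (threshold 0.05). Every adjusted p comes from this fit unless DESeq2 or limma-voom is named. The biological coefficient of variation was 0.219. CPM levels use TMM-scaled library sizes, except that membership used plain totals. Errors of mean levels are SD over 3 libraries. The SE of a log2 fold change was derived from edgeR's test, as its absolute value divided by the square root of the F statistic. The code was tested on simulated counts. Libraries of a group differed by more than sampling noise (chi-square per degree of freedom 5.48 to 16.6), so none was counted as a copy.

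Members, substrate classes and gene lists were chosen with earlier results of these data known. Genes named are those past the threshold, the 10 largest changes per comparison with control among members that did not overlap the controls, the highest-level member and those of smallest p in each class, and the members at the threshold, and a few genes that this rule names are not reported here. SLC4A1AP was moved to the class of non-carriers after the symbols were read. GENCODE 29 and RefSeq are of GRCh38 and were matched to the hg19 counts by symbol. GENCODE held 169 members, of which 27 share exon bases with a gene on the same strand and 67 with one on the opposite strand. Alternatives were library totals, DESeq2 1.42.0, limma-voom (limma 3.58.1), no low-count filter, a mean of at least 5 CPM, only the groups compared, and leaving out each library.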

Additional observations from a re-analysis of the deposited data

How the results depend on the processing

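SLC37A2 stayed lower than the control in the 3 comparisons, and SLC5A3 stayed higher, under every alternative run. Counts of members called are given with the share of all genes called under the same setting. With p38i (1, 1.77%), it was 3 with DESeq2 (5.05%) and 2 without the low-count filter (1.38%). When each library was left out it was 0 to 4 (0.0156% to 4.42%), with 4 without control 2-1 (4.42%) and 3 without EZH2i 5-4 (3.47%). With EZH2i (2, 0.216%), it was 4 with DESeq2 (1.85%), 1 with limma-voom (0.16%) and 0 in a fit of only the 2 groups (0.0344%). When each library was left out it was 0 to 2 (0.0156% to 0.973%, the highest share without control 2-1). With the combination (0, 0.00799%), it was 1 with library totals alone (0.024%), with limma-voom (0.016%) and in the fit of only the 2 groups (0.0337%). It was 2 with DESeq2 (1.33%) and without the low-count filter (0.199%). When each library was left out it was 0 to 2 (0% to 1.78%), with 1 without control 2-1 (1.78%) and 1 without EZH2i 5-3 (0.0546%). Without control 2-1, 229 of all genes were called with the combination, against 1 in the main fit. The calls added with the combination were SLC37A2 and, with DESeq2, without the filter and without EZH2i 5-4 (0.249%), also SLC35B3. For the interaction (0, 0.024%), it was 2 with DESeq2 (1.81%) and without the filter (0.331%), SLC37A2 and SLC5A3. When each library was left out it was 0 to 1 (0.0156% to 0.328%), with 1 without EZH2i 5-3 (0.328%). The combination against each single agent gave 0 under every alternative. The cause of these changes was not tested. Calls of genes that are not members (TIE1, PDGFRB, SGK1 and BSG) are given from the main fit alone. Over all genes, calls with p38i numbered 221 in the main fit. They numbered 2 without p38i 3-3, 2 without library 6 and 568 without control 2-1. An arm left with 2 libraries was assumed to vary like the other groups. No paired analysis was possible because the tumour numbers in the labels are not shared between groups. Members near 5 CPM rested on a few counts in the shallowest libraries, so that small changes were not detectable at this depth.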
